A study of Homo sapiens with 24 samples.

Results

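The transcripts of 10 plasma membrane amino acid transporter genes were followed across 3 human acute myeloid leukemia lines with and without cyclocreatine. They were SLC38A1, SLC38A2, SLC1A4, SLC1A5, SLC7A5, SLC3A2, SLC7A11, SLC43A1, SLC7A1 and SLC6A9, chosen by symbol, and all 10 of 10 were found among the 25728 gene symbols of the count files. All 3 are called EVI1-driven in the design text: TF-1, UT-7, and also UCSD-AML1. TF-1 was established from an erythroleukemia and UT-7 from a megakaryoblastic leukemia, and UCSD-AML1 has a MECOM rearrangement. Each line received either vehicle or 3 mM cyclocreatine, a creatine analog that creatine kinases phosphorylate, for 24 h. There were 4 libraries in each of the 6 groups and 24 in all, no group carried a genetic modification named in the labels, and each line stands for 1 leukemia. Whether a group's libraries are separate cultures is not labelled, so p-values measure only the spread between libraries, which may be technical.

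Amino acids are polar and cross the plasma membrane through carriers. SLC38A1 and SLC38A2 import small neutral amino acids such as glutamine and alanine together with sodium. SLC1A5 exchanges glutamine, alanine, serine and cysteine, and SLC1A4 exchanges mainly alanine, serine and cysteine. SLC7A5 imports leucine and other large neutral amino acids in exchange for glutamine, and SLC7A11 imports cystine in exchange for glutamate. Both of these are light chains that reach the membrane bound to the heavy chain SLC3A2. SLC43A1 carries large neutral amino acids without a heavy chain, SLC7A1 carries arginine and lysine, and SLC6A9 imports glycine, the amino acid from which erythroid cells start heme. Several of these genes are known targets of the transcription factor ATF4 when amino acids run short.

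Library totals ran from 12794998 to 21200662 counts. Values below are CPM, that is counts scaled to a common library size by TMM (trimmed mean of M values, which corrects for library composition), and means carry their SD with n = 4. Changes are log2 fold changes with their SE, and a gene was called when its Benjamini-Hochberg adjusted p from the edgeR quasi-likelihood test over all 14588 genes tested was under 0.05. One library stood apart: the median gene of TF-1 cyclocreatine replicate 1 lay 0.213 log2 units from the mean of the other libraries of its group, against 0.0621 to 0.126 in the other 23 libraries. For TF-1, the effect in each of the 10 transporters, the list counts, the light chain ratio and the pair shares are therefore given with and without it. The other genes whose TF-1 change is given below kept their call, or lack of one, without that library. All 8 markers of myeloid leukemia lines had counts in each line. The 8 lymphoid markers summed to 1.31 to 47.4 CPM per library over the 24 libraries. The 9 stromal and epithelial markers summed to 64.9 to 299 CPM, and EPCAM and KRT19 had no counts in UCSD-AML1.

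The transcripts of SLC38A1 and SLC7A1 fell in all 3 lines, and no other member was called in the same direction in all 3. All 10 passed the filter on low counts. In TF-1, 8 of the 10 fell and SLC3A2 rose, while 56.0% of all genes tested were called, 26.7% higher and 29.3% lower. In UT-7, 6 fell and SLC7A11 and SLC38A2 rose, with 45.9% of all genes called, 22.5% higher and 23.3% lower. In UCSD-AML1, 3 fell, SLC3A2 and SLC38A2 rose and 5 did not pass, with 40.5% of all genes called, 19.1% higher and 21.3% lower. The 10 had a median log2 fold change of -0.41 for the TF-1 line (all genes -0.0084), -0.27 for UT-7 (all genes 0) and -0.0011 for UCSD-AML1 (all genes -0.0046). The median size of the change, without its sign, was 0.43, 0.38 and 0.19, beside 0.28, 0.24 and 0.20 over all genes. These medians include SLC6A9, which held 19 counts or fewer per group in UT-7 and UCSD-AML1. Over the other 9, the middle size was 0.31 in UT-7 and 0.28 in UCSD-AML1, both from SLC7A1. Their middle signed change was -0.23 in UT-7 (SLC1A4) and -0.024 in UCSD-AML1 (SLC7A5). Without TF-1 cyclocreatine replicate 1, 7 of the 10 fell in TF-1 and 1 rose. When library totals alone scaled the data in TF-1, higher calls went from 47.7% to 36.5% of all calls and the 10 split into 9 lower and 1 higher.

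**Figure D1:**
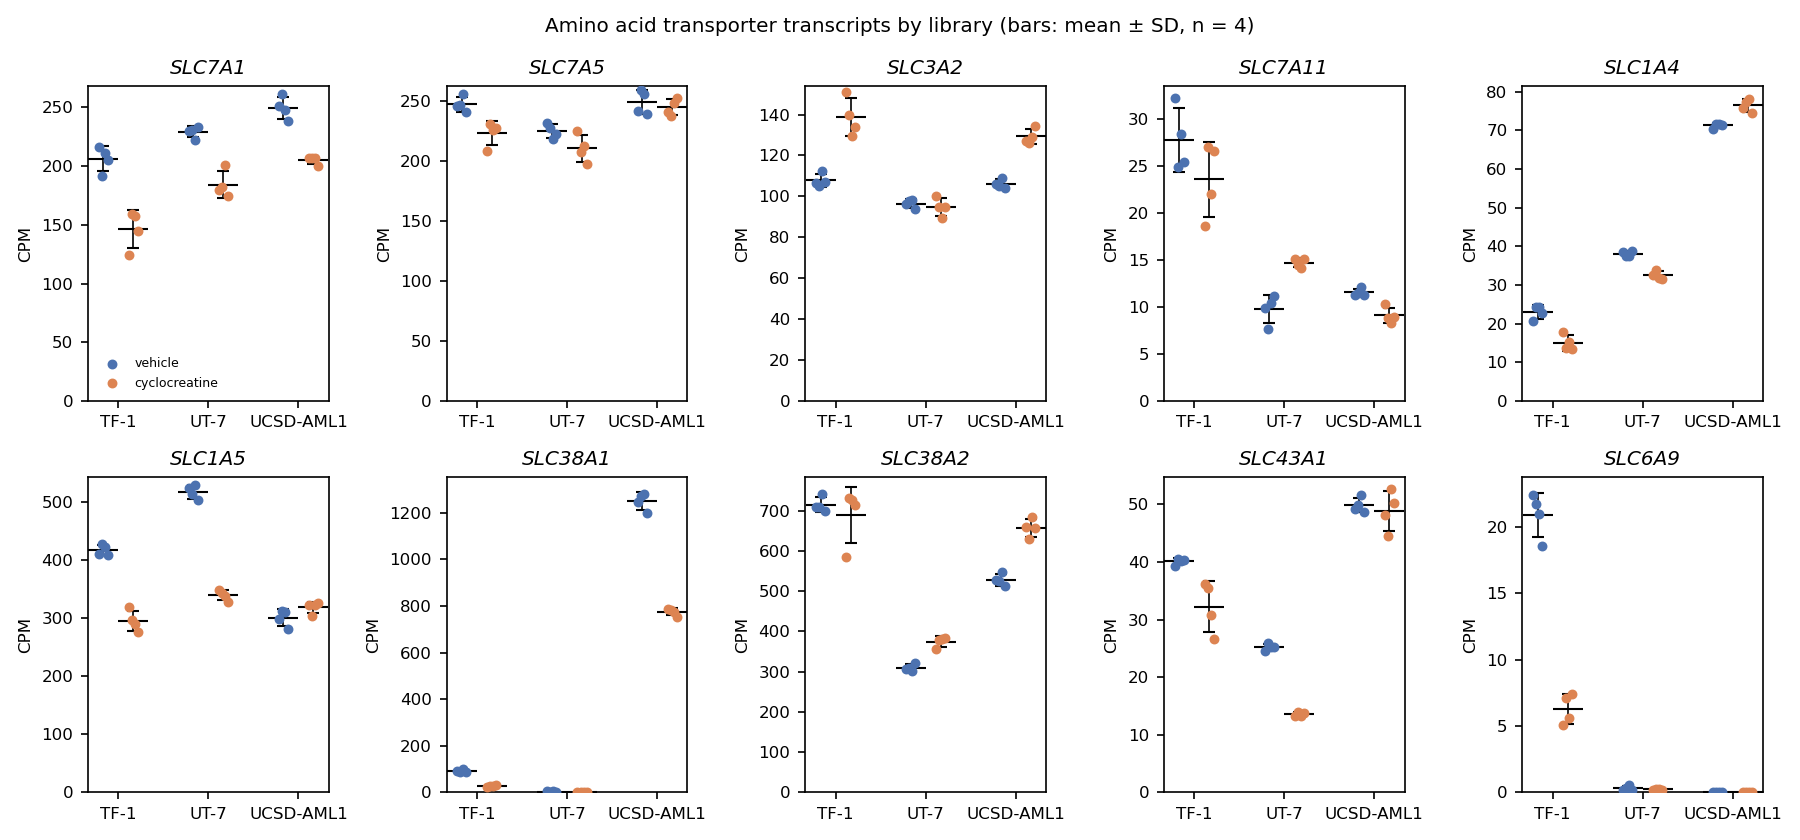
CPM of the 10 transporter transcripts in the 24 libraries; each panel is 1 gene, each point 1 library (blue vehicle, orange cyclocreatine), and the bars give the mean ± SD of 4 libraries. SLC38A1 and SLC7A1 lay lower under cyclocreatine in each line. SLC7A11 lay higher in UT-7 (14.7 against 9.78 CPM), and SLC6A9 stood near 0 in UT-7 and UCSD-AML1.

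**Figure D2:**
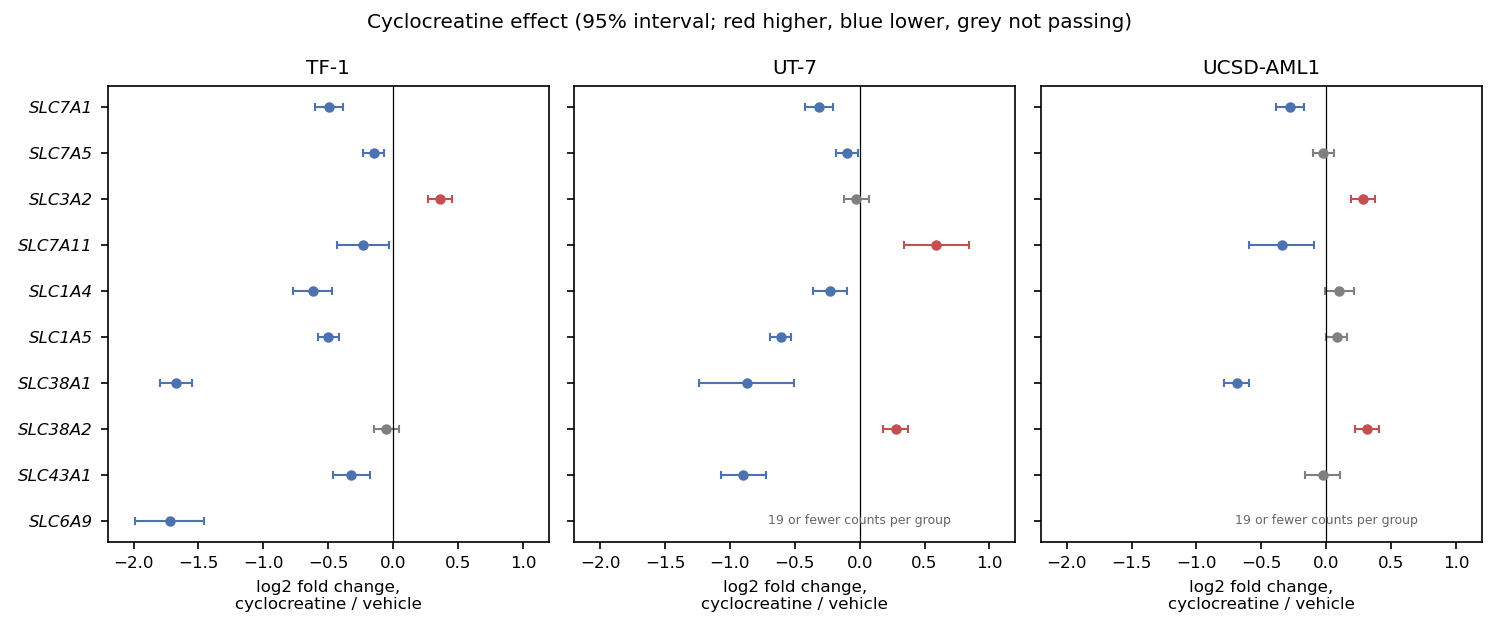
Log2 fold change of cyclocreatine over vehicle per line, as points with an approximate 95% interval; red points were called higher, blue points lower and grey points did not pass. SLC6A9 is not drawn in UT-7 and UCSD-AML1, where a group held 19 counts or fewer; its TF-1 change of -1.72 was the lowest point drawn.

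The summed level of erythroid markers was lower under cyclocreatine in each line. The 11 erythroid markers summed to 7193 to 7626 CPM in TF-1 with vehicle and 4380 to 4591 under cyclocreatine, to 6086 to 6195 and 4275 to 4626 in UT-7, and to 662 to 691 and 415 to 432 in UCSD-AML1. Of the 11, 5 fell and 3 rose in TF-1 (6 and 1 without cyclocreatine replicate 1), 7 fell in UT-7 and 4 fell in UCSD-AML1. The 8 megakaryocyte markers summed to 729.7 to 765 CPM and 1017 to 1107 CPM in TF-1, 909 to 951 and 1102 to 1130 in UT-7, and 1233 to 1339 and 1011 to 1029 in UCSD-AML1, where PF4 was detected; it was at 0 in TF-1 and UT-7. Over all genes 56.0%, 45.9% and 40.5% were called in TF-1, UT-7 and UCSD-AML1, beside which the counts of both marker lists are to be read. Of the 7 megakaryocyte markers tested, 3 fell and 1 rose in TF-1 (with and without replicate 1), 2 fell and 1 rose in UT-7, and 4 fell and 2 rose in UCSD-AML1. The marker that rose in TF-1 and UT-7 was ITGA2B, the most abundant of them, at 575 and 949.5 CPM in TF-1 and 894 and 1095 in UT-7, while ITGB3 and GP1BA fell in each line. HBA1 and HBA2 had no counts in UCSD-AML1. In such bulk RNA, fewer cells of a type and less RNA per cell cannot be told apart, and the part of these markers in the transporter changes was not tested.

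Promoter sequences are shown because ATF4 and MYC are known to act on several of these genes, and the windows let the listed letters be read beside the changes. The RefSeq table (GRCh38.p14) held 16 promoters, each from 250 bases before to 50 after a start, for 9 of the 10 genes, all but SLC7A11. The core of the amino acid response element, TGATGNAA on either strand, was found in 5 of the 16 promoters, from 5 genes, in 3.62% of all 35116 promoters of the table and in 2.02% of the 15347 promoters of tested genes. The windows of 30 bases below run 5′ to 3′ on the gene's strand, with the match in capitals; for SLC1A4 and SLC3A2 the match lies on the opposite strand, so the capitals show its reverse complement.
SLC1A4 (chr2:64989381-64989410, + strand): gcggctcccgtTTGCATCAtctccagccgg
SLC1A5 (chr19:46784893-46784922, - strand): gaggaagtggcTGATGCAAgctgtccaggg
SLC38A1 (chr12:46266502-46266531, - strand): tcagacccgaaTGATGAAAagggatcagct
SLC3A2 (chr11:62881719-62881748, + strand): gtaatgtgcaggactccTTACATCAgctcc
SLC7A1 (chr13:29595663-29595692, - strand): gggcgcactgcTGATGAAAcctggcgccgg

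The E-box CACGTG, the sequence that MYC and its partner MAX are known to bind, reads the same on both strands. It was found in 3 of the 16 promoters, from SLC1A5, SLC43A1 and SLC7A5, in 7.26% of all promoters and in 9.11% of those of tested genes.
SLC1A5 (chr19:46787326-46787355, - strand): ggcgggagtggtCACGTGgacaggacgggg
SLC43A1 (chr11:57515797-57515826, - strand): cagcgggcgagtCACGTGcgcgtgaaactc
SLC7A5 (chr16:87869620-87869649, - strand): ggccggacgacgCACGTGctccgagctggg
GATAA, the core read by GATA factors, was searched on both strands and was found in 1 promoter, that of SLC1A5, in 22.7% of all promoters and in 15.7% of those of tested genes. Its window (chr19:46788608-46788637, - strand) was cgccccctacccTTATCcctggcagcttcc, with the match on the opposite strand in capitals. The matches to the amino acid response element and the E-box in SLC1A5 belong to different annotated starts of that gene. Of the 5 genes with a response element core, SLC38A1 and SLC7A1 fell in 3 lines, SLC1A4 and SLC1A5 fell in TF-1 and UT-7, and SLC3A2 rose in TF-1 and UCSD-AML1. A match is a description of these letters and not a site.

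Of the sodium-coupled glutamine importers, SLC38A1 fell in each line, while SLC38A2 rose in UT-7 and UCSD-AML1 and did not pass in TF-1. SLC38A1 in TF-1 stood at 90.0, 88.5, 98.7 and 87.9 CPM with vehicle and at 24.1, 29.6, 27.5 and 32.7 CPM under cyclocreatine. The groups did not overlap, and the transcript fell 3.19-fold (log2 fold change -1.67 ± 0.058, adjusted p = 5.36e-23), a larger change in size than in 97.3% of genes tested in TF-1. Without cyclocreatine replicate 1 the log2 fold change was -1.60. In UCSD-AML1, where it was the most abundant of the 10 per length with vehicle, SLC38A1 read 1245, 1274, 1283 and 1199 CPM with vehicle and 789, 784, 774 and 754 CPM under cyclocreatine. Every treated library lay below every vehicle library, a 1.61-fold fall (-0.69 ± 0.045, adjusted p = 9.18e-15). In UT-7 the gene was near the bottom of the range, at 4.16, 2.76, 3.998 and 3.51 CPM with vehicle and 1.87, 2.01, 2.38 and 1.64 CPM under cyclocreatine. These values rest on 209 and 108 counts per group and did not overlap (1.83-fold lower, -0.87 ± 0.17, adjusted p = 7.93e-05). The effect in TF-1 minus that in UT-7 was -0.80 (adjusted p of the difference 0.0018), and TF-1 minus UCSD-AML1 was -0.98 (9.84e-13), so the fall was largest in TF-1. UT-7 minus UCSD-AML1 was -0.18 and did not pass (0.552).

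SLC38A2 read 306, 308, 301 and 322 CPM in UT-7 with vehicle and 355, 380, 380 and 384 CPM under cyclocreatine. No treated library overlapped a vehicle library, and the transcript rose 1.21-fold (0.28 ± 0.046, adjusted p = 5.94e-06). In UCSD-AML1 it went from 527, 526, 549 and 513 CPM to 661, 629, 683 and 657 CPM, again without overlap, a 1.24-fold rise (0.31 ± 0.045, 6.97e-07). In TF-1 the vehicle libraries held 708, 710, 741 and 699 CPM and the treated ones 585, 732, 728 and 714 CPM. Replicate 1 was the low treated library, and the change did not pass (-0.052 ± 0.045, adjusted p = 0.338). Without replicate 1 the change was 0.020 (0.602), and with library totals alone it was -0.13 and was called (0.0257). The effect in TF-1 minus that in UT-7 was -0.33 (adjusted p of the difference 0.000195), and TF-1 minus UCSD-AML1 was -0.37 (3.15e-05). Per length, SLC38A1 made up 55.6% ± 0.404 of the summed level of the pair in UCSD-AML1 with vehicle and 38.5% ± 1.02 under cyclocreatine. Its share was 6.34% ± 0.176 and 2.15% ± 0.17 in TF-1 (treated without replicate 1, 2.15% ± 0.208, n = 3), and 0.616% ± 0.115 and 0.279% ± 0.043 in UT-7. The summed level of the pair went from 244 ± 6.86 to 219 ± 4.53 CPM per kilobase in UCSD-AML1 and from 63.6 ± 1.89 to 76.9 ± 2.69 in UT-7. In TF-1 it went from 156 ± 4.3 to 144 ± 14.6, or to 151 ± 1.71 without cyclocreatine replicate 1 (n = 3).

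The exchangers SLC1A5 and SLC1A4 fell in TF-1 and UT-7, and neither passed in UCSD-AML1. SLC1A5, the main glutamine exchanger of many leukemia cells, stood at 525, 514, 530 and 504 CPM in UT-7 with vehicle and at 350, 344, 338 and 329 CPM under cyclocreatine. The groups were far apart, a 1.52-fold fall (-0.61 ± 0.038, adjusted p = 3.35e-16). In TF-1 it went from 410, 428, 423 and 410 CPM to 319, 297, 290 and 277 CPM. The groups did not overlap, the fall was 1.41-fold (-0.50 ± 0.038, 5.09e-14), and without cyclocreatine replicate 1 it was -0.54. In UCSD-AML1 the values were 300, 313, 311 and 281 CPM against 322, 304, 323 and 327 CPM. These overlapped and did not pass (0.082 ± 0.038, adjusted p = 0.0851). The rise was called with UCSD-AML1 fitted alone (0.09, 0.00594) and without cyclocreatine replicate 2 (0.10, 0.0436). The difference of effects was -0.58 for TF-1 minus UCSD-AML1 (adjusted p = 7.68e-11) and -0.69 for UT-7 minus UCSD-AML1 (1.12e-12). For TF-1 minus UT-7 it was 0.11 and did not pass (0.131), though it passed without TF-1 cyclocreatine replicate 4 (0.14, 0.0416).

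SLC1A4, which prefers alanine, serine and cysteine, read 20.6, 24.2, 24.4 and 22.8 CPM in TF-1 with vehicle and 17.8, 13.7, 15.2 and 13.4 CPM under cyclocreatine. All treated libraries were lower, with replicate 1 the highest of them (1.54-fold lower, -0.62 ± 0.071, adjusted p = 1.72e-09). Without replicate 1 the change was -0.71. In UT-7 it went from 38.6, 37.6, 37.4 and 38.9 CPM to 32.7, 33.9, 31.9 and 31.6 CPM, a fall of 1.17-fold with no overlap (-0.23 ± 0.062, 0.00236). In UCSD-AML1 it was at 70.4, 71.5, 71.7 and 71.4 CPM with vehicle and at 75.7, 77.3, 78.2 and 74.5 CPM under cyclocreatine. The groups did not overlap, yet the gene did not pass in the joint fit (0.10 ± 0.054, adjusted p = 0.135), and it passed with the line fitted alone (0.11, 0.00822). All 3 differences between lines were called for SLC1A4, at -0.39 for TF-1 minus UT-7, -0.72 for TF-1 minus UCSD-AML1 and -0.33 for UT-7 minus UCSD-AML1 (adjusted p = 0.00183, 5.81e-08 and 0.00241).

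The heavy chain SLC3A2 rose in TF-1 and UCSD-AML1 while its main light chain SLC7A5 did not rise in any line. SLC3A2 in TF-1 read 107, 105, 112 and 107 CPM with vehicle and 151, 140, 129 and 134 CPM under cyclocreatine. The groups did not overlap and replicate 1 was the highest (1.29-fold higher, 0.36 ± 0.043, adjusted p = 3.47e-09). Without replicate 1 the change was 0.32. In UCSD-AML1 it went from 106, 105, 109 and 104 CPM to 127, 126, 129 and 135 CPM, a rise of 1.22-fold without overlap (0.28 ± 0.043, 1.16e-06). In UT-7 the values were 96.5, 97.8, 98.0 and 93.7 CPM against 100.2, 94.8, 89.4 and 94.9 CPM. These overlapped and did not pass (-0.026 ± 0.045, adjusted p = 0.688), and the difference of effects was 0.39 for TF-1 minus UT-7 (8.74e-06) and -0.31 for UT-7 minus UCSD-AML1 (0.000205).

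SLC7A5, the leucine importer that feeds amino acid sensing by mTORC1, fell slightly in TF-1 and UT-7. In TF-1 it went from 246, 247, 256 and 241 CPM to 209, 231, 226 and 227 CPM. All treated libraries were lower and the fall was 1.11-fold (-0.15 ± 0.039, adjusted p = 0.00134). Without cyclocreatine replicate 1, the lowest library, it was -0.12 (0.0034). In UT-7 the libraries read 232, 227, 219 and 223 CPM with vehicle and 225, 208, 212 and 198 CPM under cyclocreatine. The groups overlapped, and the 1.07-fold fall passed narrowly (-0.097 ± 0.039, 0.0416), with adjusted p-values from 0.0104 to 0.202 when 1 UT-7 library was left out; without cyclocreatine replicate 4 the change was -0.067 (0.202). In UCSD-AML1 values of 242, 259, 256 and 239 CPM stood against 241, 237, 248.5 and 253 CPM and did not pass (-0.024 ± 0.039, 0.683). None of the 3 differences between lines passed for SLC7A5, with adjusted p-values of 0.538, 0.0872 and 0.399. That between TF-1 and UCSD-AML1 (-0.12) passed with library totals alone (-0.20, 0.00565) and with DESeq2 (-0.14, 0.0487). Reads of SLC7A5 could be shared with its pseudogenes SLC7A5P1 and SLC7A5P2, whose group means were 1.17 to 1.90 and 1.22 to 1.95 CPM.

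SLC7A11, the cystine importer, rose in UT-7, from 9.94, 7.66, 10.4 and 11.1 CPM to 15.1, 14.5, 14.1 and 15.1 CPM. Vehicle and treated libraries did not overlap, and the rise was 1.51-fold (0.59 ± 0.12, adjusted p = 6.57e-05). In UCSD-AML1 it went from 11.3, 11.5, 12.1 and 11.2 CPM to 10.3, 8.84, 8.34 and 8.89 CPM. The groups did not overlap (1.27-fold lower, -0.34 ± 0.12, adjusted p = 0.0201), but the call was lost with limma-voom (0.0514), without vehicle replicate 3 (0.0533) and without cyclocreatine replicate 3 (0.0667). In TF-1 the vehicle libraries read 32.3, 24.9, 28.4 and 25.4 CPM and the treated ones 18.6, 27.1, 22.1 and 26.6 CPM. These overlapped, and the call (-0.23 ± 0.095, 0.0376) was lost without cyclocreatine replicate 1 (-0.13, 0.191), without vehicle replicate 1 (-0.15, 0.208) and with TF-1 fitted alone (0.127). It was also lost without vehicle replicate 3 (0.0762) or cyclocreatine replicate 3 (0.0952). The difference of effects was -0.82 for TF-1 minus UT-7 (adjusted p = 7.37e-05) and 0.93 for UT-7 minus UCSD-AML1 (4.75e-05). The antisense transcript SLC7A11-AS1, which overlaps the gene, held 4 to 16 counts per group.

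The other light chains of SLC3A2 were set beside it per length. SLC7A8, a second importer of neutral amino acids, fell 2.59-fold in TF-1, from 76.5 ± 2.7 to 29.5 ± 0.606 CPM (-1.37 ± 0.067, adjusted p = 1.85e-19), and 2.17-fold in UT-7, from 4.72 ± 0.444 to 2.17 ± 0.283 CPM (-1.12 ± 0.15, 8.41e-08). SLC7A6, which exchanges arginine for neutral amino acids, was highest in UCSD-AML1 at 112 ± 3.19 CPM and passed only in UT-7 (-0.14 ± 0.057, 0.036). SLC7A7, of the same type, fell in TF-1 from 63 to 17 counts over the group (-1.86 ± 0.33, 9.65e-06). SLC7A10 was below the expression filter, and SLC7A7 in UT-7 rested on 61 and 36 counts. Summed per length, SLC7A5, SLC7A6, SLC7A7, SLC7A8 and SLC7A11 stood at 1.95 ± 0.0497 times SLC3A2 in TF-1 with vehicle and 1.21 ± 0.122 times under cyclocreatine (1.27 ± 0.0369 without replicate 1, n = 3). The ratio went from 1.94 ± 0.0564 to 1.54 ± 0.0227 in UCSD-AML1 and from 1.58 ± 0.0557 to 1.497 ± 0.0742 in UT-7. The libraries of the 2 treatments did not overlap in TF-1 (1.91 to 2.01 against 1.03 to 1.30) and UCSD-AML1 (1.90 to 2.02 against 1.503 to 1.553), and overlapped in UT-7. The size of the ratio depends on the lengths used. With its longest transcript as the length, SLC3A2 in TF-1 read 48.5 and 62.4 CPM per kilobase with vehicle and cyclocreatine, against 40.9 and 52.5 here. SLC7A5 made up 68.5% of the light chains in TF-1 vehicle, 86.0% in UT-7 and 70.5% in UCSD-AML1. SLC7A8 held 20.5% in TF-1 vehicle and 9.93% under cyclocreatine (9.77% without replicate 1), and SLC7A6 held 22.7% in UCSD-AML1 vehicle.

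**Figure D3:**
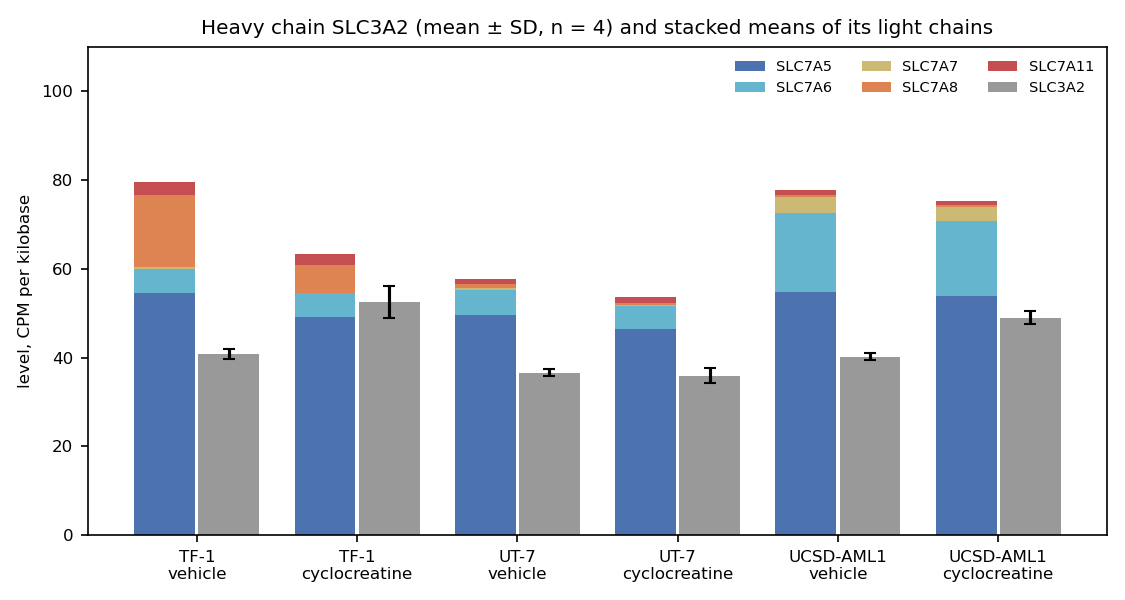
Levels in CPM per kilobase of the heavy chain SLC3A2 (grey, mean ± SD of 4 libraries) and the stacked means of its light chains (colours) in the 6 groups. The grey bar rose under cyclocreatine in TF-1 (40.9 to 52.5) and UCSD-AML1 (40.2 to 49.0). The stacked light chains went from 79.6 to 63.3 in TF-1 and from 77.8 to 75.2 in UCSD-AML1, and these sums were not tested. SLC7A5, the largest part of the stack, did not pass in UCSD-AML1 (edgeR adjusted p = 0.683).

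SLC43A1, which carries leucine, phenylalanine and methionine without a heavy chain, fell in UT-7 and TF-1. In UT-7 it read 24.5, 25.9, 25.2 and 25.2 CPM with vehicle and 13.2, 13.9, 13.2 and 13.9 CPM under cyclocreatine. The groups were far apart, a 1.86-fold fall (-0.90 ± 0.082, adjusted p = 1.1e-11). In TF-1 it went from 39.4, 40.5, 40.1 and 40.4 CPM to 36.1, 35.4, 30.8 and 26.6 CPM. Treated libraries spread more than vehicle libraries and did not overlap them (-0.32 ± 0.068, 0.000102). Without cyclocreatine replicate 1 the change was -0.39, and the values with 1 TF-1 library left out ran from -0.39 to -0.23. In UCSD-AML1 the values were 49.2, 49.9, 51.5 and 48.7 CPM against 48.2, 44.4, 52.7 and 50.2 CPM, which overlapped and did not pass (-0.028 ± 0.064, 0.782). As for SLC1A4, all 3 differences between lines were called, at 0.58 for TF-1 minus UT-7 (adjusted p = 7.97e-05), -0.29 for TF-1 minus UCSD-AML1 (0.0152) and -0.87 for UT-7 minus UCSD-AML1 (3.36e-08). The second of these was lost without TF-1 cyclocreatine replicate 4 (-0.20, 0.0609).

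SLC7A1, the arginine and lysine importer, stood at 206 to 249.8 CPM in the vehicle groups and fell in each line. In TF-1 it went from 217, 192, 212 and 206 CPM to 124, 159, 158 and 145 CPM. The groups did not overlap and replicate 1 was the lowest treated library (1.41-fold lower, -0.50 ± 0.052, adjusted p = 4.66e-10). Without it the change was -0.43. In UT-7 values of 230, 231, 222 and 233 CPM stood against 179.7, 182, 201 and 175 CPM, a 1.24-fold fall without overlap (-0.31 ± 0.052, 4.88e-06). In UCSD-AML1 values of 251, 261, 248 and 239 CPM stood against 207, 207, 207 and 200.4 CPM, also without overlap (1.22-fold lower, -0.28 ± 0.051, 2.68e-05). The effect in TF-1 minus that in UCSD-AML1 was -0.21 (adjusted p of the difference 0.0249). That call was lost without any 1 of TF-1 vehicle replicates 1 (0.0623) and 3 (0.0523) and UCSD-AML1 vehicle replicate 4 (0.0604). The TF-1 and UT-7 effects differed by -0.18 (0.0613). That difference lay near the threshold: it passed with library totals alone (-0.22, 0.034) and DESeq2 size factors (-0.19, 0.0481), and without any 1 of TF-1 vehicle replicate 2 (0.0299), TF-1 cyclocreatine replicates 2 (0.0203) and 3 (0.0254) and UT-7 cyclocreatine replicate 4 (0.0427). Without TF-1 cyclocreatine replicate 1 it was -0.11 (0.112). UT-7 and UCSD-AML1 differed by -0.031 ± 0.073 (0.849).

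SLC6A9, the glycine importer, had more than 19 counts per group in TF-1 only. It read 22.4, 21.7, 21.0 and 18.5 CPM in TF-1 with vehicle and 5.06, 7.13, 5.57 and 7.39 CPM under cyclocreatine. The groups were far apart, a 3.30-fold fall (-1.72 ± 0.13, adjusted p = 1.9e-14), and without cyclocreatine replicate 1 the change was -1.63. In UT-7 it held 19 counts over the 4 vehicle libraries and 13 over the treated ones, and a change was not detectable at this depth (adjusted p = 0.513). In UCSD-AML1 it held 1 count in each group of 4 libraries. Its passing of the expression filter rests on TF-1. Reads of SLC6A9 cannot be told from those of CCDC24 where exons overlap on the opposite strand, as no source used here states whether counting used strand. This holds for any member that shares exonic sequence with a gene on the other strand.

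Levels of different genes were compared per kilobase of exon, from transcript lengths in GENCODE release 29. In TF-1 with vehicle SLC38A2 was highest, at 146 ± 3.77 CPM per kilobase, followed by SLC1A5 at 129.9 ± 2.8, SLC7A5 at 54.5 ± 1.38 and SLC3A2 at 40.9 ± 1.16. In UT-7 SLC1A5 led at 161 ± 3.62, before SLC38A2 at 63.2 ± 1.91 and SLC7A5 at 49.6 ± 1.28. In UCSD-AML1 SLC38A1 led at 136 ± 4.1, before SLC38A2 at 108 ± 3.04 and SLC1A5 at 93.7 ± 4.53. SLC7A1 stood at 28.1 to 34.0 in the 3 lines. The lowest of the 10 with vehicle was SLC6A9 in UT-7 (0.0894) and UCSD-AML1 (0.0044) and SLC7A11 in TF-1 (2.87). Next above them were SLC38A1 in UT-7 (0.391), SLC7A11 in UCSD-AML1 (1.196) and SLC1A4 in TF-1 (4.90). The order of the 10 within each vehicle group was the same with the longest transcript as the length. Under cyclocreatine that length put SLC3A2 above SLC7A5 in UCSD-AML1 (58.2 against 54.0). It also put SLC38A1 above SLC1A4 in TF-1 (3.53 against 3.29). With vehicle, libraries of neighbours in the order did not overlap in any line, except those of SLC6A9 and SLC1A4 in TF-1 (5.85 ± 0.472 and 4.90 ± 0.374). Under cyclocreatine more neighbours overlapped: SLC3A2 and SLC7A5 in TF-1, each adjacent pair among SLC1A4, SLC38A1, SLC7A11 and SLC6A9 in TF-1, and SLC43A1 and SLC1A4 in UCSD-AML1. Under cyclocreatine SLC38A2 stood above SLC38A1 in UCSD-AML1 (134.5 ± 4.57 against 84.1 ± 1.68).

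**Figure D4:**
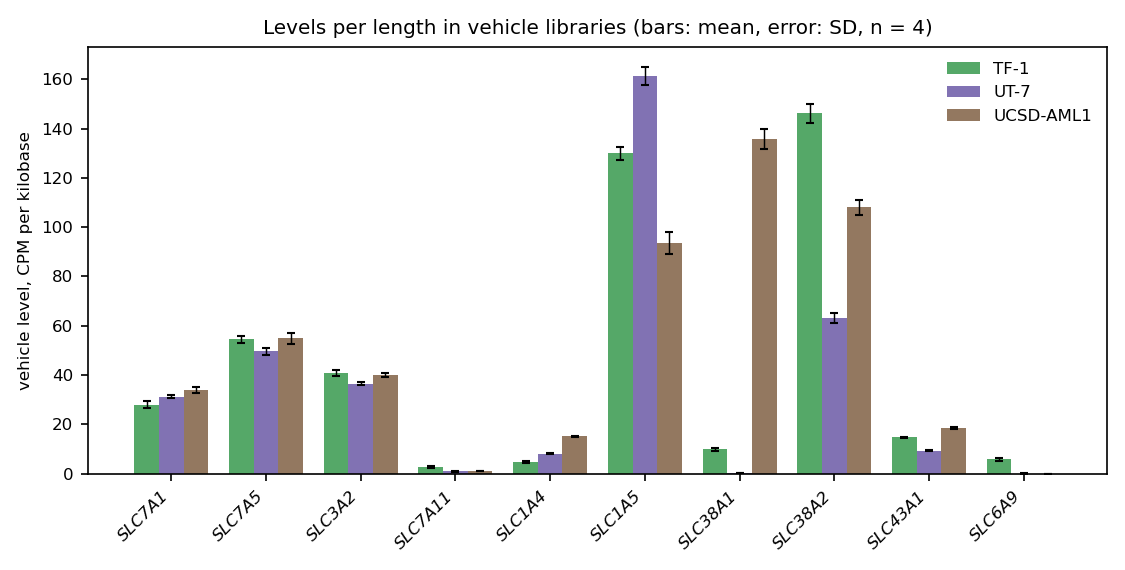
Vehicle levels of the 10 transcripts in CPM per kilobase of exon; bars are means of 4 libraries in TF-1, UT-7 and UCSD-AML1 and error bars are SDs. SLC38A1 ranged from 0.391 in UT-7 to 136 in UCSD-AML1, while SLC7A5 lay between 49.6 and 54.9 in the 3 lines.

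Between the vehicle groups, 10 of the 10 transcripts differed between TF-1 and UT-7, 7 higher and 3 lower in TF-1 (of all genes 79.7% were called, 41.0% higher and 38.7% lower). Between TF-1 and UCSD-AML1 4 were higher and 4 lower in TF-1 (84.0% of all genes, 40.6% higher and 43.3% lower). Between UT-7 and UCSD-AML1 2 were higher and 7 lower in UT-7 (81.5% of all genes, 40.0% higher and 41.5% lower). These tallies include SLC6A9, which passed the expression filter only through TF-1, where it is high, so that its calls follow from the filter; between UT-7 and UCSD-AML1 its call rests on 19 counts against 1. Over the other 9, 6 were higher and 3 lower in TF-1 than in UT-7, 3 higher and 4 lower in TF-1 than in UCSD-AML1, and 1 higher and 7 lower in UT-7 than in UCSD-AML1. The largest gap with measurable counts on both sides was in SLC38A1, with log2 differences of -3.78 for TF-1 minus UCSD-AML1 (adjusted p = 8.89e-38), 4.66 for TF-1 minus UT-7 (1.4e-33) and -8.43 for UT-7 minus UCSD-AML1. SLC1A4 was lower in TF-1 than in UCSD-AML1 (-1.63 ± 0.060, 3.89e-25), and SLC7A11 was higher in TF-1 than in UT-7 by 1.504 ± 0.11 (9.91e-16). SLC38A2 was higher in TF-1 than in UT-7 by 1.21 ± 0.046 (3.45e-23). SLC7A5 and SLC3A2 did not pass between TF-1 and UCSD-AML1 (-0.0094 ± 0.039, adjusted p = 0.824, and 0.024 ± 0.043, 0.617), nor did SLC7A11 between UT-7 and UCSD-AML1 (0.0646), which passed without UT-7 vehicle replicate 4 (-0.30, 0.0324). The called differences of SLC7A1 between UT-7 and UCSD-AML1 (-0.12, 0.0248), and of SLC7A5 (0.14, 0.00181) and SLC3A2 (0.16, 0.00121) between TF-1 and UT-7, were lost with library totals alone (0.128, 0.156 and 0.0626). That of SLC7A1 was also lost with DESeq2 size factors (0.0656), DESeq2's Wald test (0.0844), and without UT-7 vehicle replicate 3 (0.0709) or UCSD-AML1 vehicle replicate 2 (0.0831).

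The difference of the cyclocreatine effect between lines was called for 6 of the 10 between TF-1 and UT-7, 2 higher and 4 lower in TF-1, beside 27.5% of all genes, 14.3% higher and 13.2% lower. It was called for 6 between TF-1 and UCSD-AML1 (29.1% of all genes, 14.8% higher and 14.3% lower), each lower in TF-1. It was called for 5 between UT-7 and UCSD-AML1, 1 higher and 4 lower in UT-7 (23.0%, with 11.5% in each direction). These comparisons share libraries. With library totals alone, higher calls over all genes went from 52.1% to 41.5% of calls for TF-1 minus UT-7 and from 50.8% to 32.5% for TF-1 minus UCSD-AML1. SLC7A5 was in none of the 3 sets, and for SLC6A9 no difference passed in edgeR (TF-1 minus UT-7 passed with limma-voom, 0.0291, and without UT-7 vehicle replicate 3, 0.0383).

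Genes that handle the same amino acids were counted from lists, with the 10 left out. Of 45 other amino acid transporters 21 were tested; 8 fell and 3 rose in TF-1, 7 fell and 2 rose in UT-7, and 3 fell and 5 rose in UCSD-AML1. Over all genes 56.0%, 45.9% and 40.5% were called in TF-1, UT-7 and UCSD-AML1, against which this and the other list counts are to be read. Without TF-1 cyclocreatine replicate 1, 22 of these transporters were tested, and 8 fell and 2 rose in TF-1, with 56.4% of all genes called. SLC43A3, a relative of SLC43A1, fell in TF-1 (1.31-fold, adjusted p = 2.09e-13) and UT-7 (1.502-fold, 2.22e-18) and did not pass in UCSD-AML1 (0.056 ± 0.031, 0.155). The taurine transporter SLC6A6 rose 1.82-fold in UCSD-AML1, from 175 ± 6.09 to 319 ± 8.43 CPM (1.05e-15), and 1.27-fold in TF-1 (2.67e-06). SLC38A10 fell 1.40-, 1.42- and 1.23-fold in TF-1, UT-7 and UCSD-AML1.

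Of the 33 tested regulators and targets of the amino acid response, 21 fell and 5 rose in TF-1, 6 fell and 10 rose in UT-7, and 9 fell and 9 rose in UCSD-AML1. All genes were called at 56.0%, 45.9% and 40.5%, and without TF-1 cyclocreatine replicate 1, 19 of the list fell and 6 rose in TF-1. The median log2 fold change of this list was -0.24, 0.047 and -0.048. ATF4 itself, which is controlled mainly by translation, went from 254 ± 12.5 to 253.5 ± 16.4 CPM in TF-1 (adjusted p = 0.947) and rose 1.17-fold in UCSD-AML1 (1.62e-05). DDIT3, a stress-induced transcription factor, rose 1.94-, 1.73- and 2.12-fold in TF-1, UT-7 and UCSD-AML1 (4.7e-08, 1.49e-07 and 2.63e-08). TRIB3, an inhibitor of ATF4, fell in the 3 lines (1.82-, 1.54- and 1.13-fold), and so did ATF5 (1.66-, 1.55- and 1.51-fold). ASNS, asparagine synthetase, fell in TF-1 (1.49-fold, 2.64e-10) and UCSD-AML1 (1.23-fold, 0.00861), and CHAC1, which degrades glutathione, fell 2.91-fold in TF-1 (9.82e-09). CBS, the first enzyme from homocysteine toward cysteine, fell 2.23-fold in TF-1 and 1.73-fold in UT-7, while SHMT2, which makes glycine in mitochondria, rose 1.43-, 1.33- and 1.31-fold. MYC, a known activator of SLC7A5 and SLC1A5, fell 1.15-, 1.60- and 1.22-fold across the lines in the same order (1.63e-06, 2.13e-19 and 3.9e-09).

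Among 12 genes of glutamine and glutamate use, 5 rose and 4 fell in TF-1, 4 rose and 3 fell in UT-7, and 4 rose and 2 fell in UCSD-AML1, beside 56.0%, 45.9% and 40.5% of all genes called in the 3 lines. CAD, which starts pyrimidine synthesis from glutamine, rose 1.32-, 1.247- and 1.27-fold, the mitochondrial transaminase GOT2 rose 1.26-, 1.17- and 1.13-fold, and GFPT1, which starts the hexosamine pathway, rose in TF-1 (1.18-fold) and UT-7 (1.60-fold). Of 14 cystine and glutathione genes 8 fell and 3 rose in TF-1, 5 fell and 3 rose in UT-7, and 5 fell and 4 rose in UCSD-AML1, beside the same shares of all genes. Without TF-1 cyclocreatine replicate 1, 4 rose and 4 fell of the glutamine genes in TF-1, and 3 rose and 8 fell of the glutathione genes. Glutathione synthetase GSS rose 1.46-, 1.51- and 1.16-fold, and glutathione reductase GSR fell 1.29-, 1.22- and 1.30-fold.

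Of 10 genes of glycine use for heme, 5 rose and 2 fell in TF-1, 2 rose and 4 fell in UT-7, and 4 rose and 3 fell in UCSD-AML1, beside 56.0%, 45.9% and 40.5% of all genes called in the 3 lines. The mitochondrial glycine carrier SLC25A38 rose in TF-1 (1.34-fold, adjusted p = 2.33e-07) and UCSD-AML1 (1.16-fold, 0.00639), and ALAS1, the first heme enzyme outside erythroid cells, fell in TF-1 (1.31-fold, 2.79e-09) and UCSD-AML1 (1.10-fold, 0.0311). The iron carrier SLC25A37 fell in TF-1 (1.33-fold) and UT-7 (1.87-fold). Of 32 genes that sense amino acids upstream of mTORC1, 13 rose and 9 fell in TF-1, 14 rose and 5 fell in UT-7, and 11 rose and 6 fell in UCSD-AML1, beside the same shares of all genes. Without TF-1 cyclocreatine replicate 1, 4 of the glycine genes rose and 3 fell in TF-1, and 13 of the sensing genes rose and 8 fell. SEC13 (1.65-, 1.63- and 1.29-fold), NPRL3 (1.42-, 1.27- and 1.33-fold), WDR24 (1.495-, 1.45- and 1.475-fold) and FLCN (1.09-, 1.18- and 1.62-fold) rose in the 3 lines.

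The genes whose pattern was most like that of each transporter were taken as the 2 with the highest Pearson r of log2 CPM over the 24 libraries, after each line was centred on its own mean. The points share lines, treatment and libraries, so r is a description. SLC43A3 was among the 2 most like SLC1A5 (r = 0.978). SLC38A1 was most like LINC00657 (0.974) and MAVS (0.97), and SLC7A1 was most like ZMYM4 (0.974) and TUG1 (0.974). SLC43A1 followed PTDSS2 (0.975) and ABHD16A (0.975), SLC3A2 followed AHCY (0.959) and CDT1 (0.957), and SLC1A4 followed GPR56 (0.942) and NSMF (0.939). The closest genes were less alike for SLC38A2 (PHACTR4 at 0.925 and NCOA3 at 0.909), SLC6A9 (FAM65A at 0.888 and DVL2 at 0.884), SLC7A11 (TET2 at 0.88 and ANKRD11 at 0.851) and SLC7A5 (MLLT10 at 0.845 and LDLRAD4 at 0.838). For SLC6A9 only TF-1 has a measurable pattern, as the gene held 19 counts or fewer per group in UT-7 and UCSD-AML1. Within the 10, SLC7A1 and SLC38A1 (r = 0.934) and SLC1A5 and SLC43A1 (0.913) were the most alike, and SLC3A2 ran opposite to SLC38A1 (-0.804) and SLC7A1 (-0.804).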

How the data were processed

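RNA from 24 libraries (3 lines, vehicle or cyclocreatine, 4 libraries per group) was sequenced on an Illumina HiSeq, per the series' design text. Each library has 1 deposited file of whole-number counts by gene symbol. Tools and builds named in the submitters' processing notes are FastQC, TopHat2, RSEM, GRCh37 and hg19, with no role or version; how counts and strand were handled is not stated there. A chi-square test found all 36 replicate pairs to differ beyond counting noise (1.29 to 19.3 per degree of freedom, genes with 20 or more counts).

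Counts were analysed with edgeR 4.0.16 in R 4.3.3. The filter filterByExpr (counts of 10, total of 15) left 14588 genes. After TMM scaling, a single model with a mean for each of the 6 groups was fitted by robust quasi-likelihood, with 18 residual degrees of freedom. Tests looked at both directions. Each SE was taken as the absolute log2 change divided by the root of F, and intervals use it with the t quantile of 18 degrees of freedom, so both are approximate. Alternatives used DESeq2 1.42.0 and limma 3.58.1. The procedure was also run on simulated counts with the same spread for all genes and no library standing apart. That run cannot show how the procedure performs with the TF-1 library that stood apart. CPM per kilobase used exon lengths of coding transcripts with a RefSeq link in GENCODE release 29. Plots used matplotlib 3.10.9.

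The members, lists and motifs were chosen with earlier results of these data known. Named were the 10 members, the partners of SLC3A2 and 6 regulators always, up to 4 genes per list with the smallest p in the mean effect (at least 5 CPM in 1 line), and the 2 genes most like each member (at least 5 CPM in every line). Values of a few such genes were left out of the text.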

Additional observations from a re-analysis of the deposited data

Results flagged for a closer look

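Of 56 groups of 4 libraries checked for 1 value far from the other 3, 3 had one, and chance gives about 1 in 20. SLC38A2 stood at 584.8 CPM in TF-1 cyclocreatine replicate 1, the library that stood apart over all genes, with a gap of 0.878 of the group's range. It stood at 355.2 CPM in UT-7 cyclocreatine replicate 1 (0.867 of the range), still above each UT-7 vehicle library. SLC7A1 stood at 200.4 CPM in UCSD-AML1 cyclocreatine replicate 4 (0.941 of a narrow range).

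Of 30 tested differences of the cyclocreatine effect between 2 lines, 17 were called. Over all genes, 27.5% were called for TF-1 minus UT-7, 29.1% for TF-1 minus UCSD-AML1 and 23.0% for UT-7 minus UCSD-AML1. The called differences of the transporters for TF-1 minus UT-7 were 0.39 for SLC3A2, -0.82 for SLC7A11, -0.39 for SLC1A4, -0.80 for SLC38A1, -0.33 for SLC38A2 and 0.58 for SLC43A1. For TF-1 minus UCSD-AML1 they were -0.21 for SLC7A1, -0.72 for SLC1A4, -0.58 for SLC1A5, -0.98 for SLC38A1, -0.37 for SLC38A2 and -0.29 for SLC43A1. For UT-7 minus UCSD-AML1 they were -0.31 for SLC3A2, 0.93 for SLC7A11, -0.33 for SLC1A4, -0.69 for SLC1A5 and -0.87 for SLC43A1. The SLC43A1 call for TF-1 minus UCSD-AML1 was lost without TF-1 cyclocreatine replicate 4 (edgeR adjusted p = 0.0609). That of SLC7A1 for the same lines was lost in several alternative runs.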

How the results depend on the processing

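The counts of genes and of members called stayed within 1.5 times in every alternative run (scaling, filter, DESeq2, limma-voom, each line alone, the replicate block and each library left out). With 1 library of the compared groups left out, members called ran from 8 to 9 in TF-1, 7 to 8 in UT-7 and 4 to 6 in UCSD-AML1. Same-numbered vehicle and treated libraries did not deviate together (correlations -0.048 to 0.0715, 0 of 12 pairs over 0.1), and with the replicate block 8, 7 and 4 members were called in TF-1, UT-7 and UCSD-AML1, as SLC7A11 in TF-1 (0.0761) and UCSD-AML1 (0.0515) and SLC7A5 in UT-7 (0.0527) were lost. The difference of the SLC7A1 effect, TF-1 minus UCSD-AML1, was also lost with the block (-0.22, 0.0519). The block shared by all groups, used for vehicle levels, and the lists, ratio and shares without TF-1 cyclocreatine replicate 1 were chosen after seeing the data.

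No called change reversed; signs turned only in changes that did not pass. SLC7A5 between the TF-1 and UCSD-AML1 vehicle groups went to 0.0405 with DESeq2 size factors and 0.0406 with DESeq2's Wald test, and SLC3A2 for the same pair to -0.0185 with library totals. With 1 library left out, the first ran from -0.0312 to 0.0080, SLC38A2 in TF-1 from -0.0806 to 0.0198 (above 0 without cyclocreatine replicate 1), SLC3A2 in UT-7 from -0.0534 to 0.0074 (without cyclocreatine replicate 3) and SLC43A1 in UCSD-AML1 from -0.0669 to 0.0146 (without cyclocreatine replicate 2). SLC6A9 in UCSD-AML1, with 1 count per group, ran from -1.55 to 1.57, and its difference between UT-7 and UCSD-AML1 from -2.03 to 1.10. Depth limits SLC6A9 in UT-7 and UCSD-AML1 and widens the error of SLC38A1 in UT-7.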

Other observations

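SNHG1, a host gene of small nucleolar RNAs, is the gene before SLC3A2 in the RefSeq gene order, leaving out small RNAs. The gene after SLC3A2 is CHRM1, whose values are not given here. SNHG1 rose 1.84-fold in TF-1 (adjusted p = 8.9e-21, edgeR) and 1.14-fold in UCSD-AML1 (0.000292), and did not pass in UT-7 (-0.045 ± 0.042, 0.419). It falls outside the rule for named genes and was chosen after its values were seen.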
